A study of Homo sapiens with 15 samples.

Results

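A set of 9 genes of the interferon and double-stranded RNA response, of 19966 in the table, was followed through 9 RNA-seq libraries of 293T cells. They were taken by name: the signal transducers STAT2, IRF9 and IRF1, the RNA-binding enzymes EIF2AK2 and ADAR, and the interferon-induced genes IFIT1, ISG15, IFI6 and IFI27. They are genes that a hairpin RNA may trigger. 293T cells derive from human embryonic kidney and express the large T antigen of SV40. Their growth medium contains fetal bovine serum, and the series sets serum withdrawal beside knockdown of factors of RNA processing. Of its 15 samples, 9 have a column in the table: 3 of fed wild-type cells (0 h of starvation), 3 of wild-type cells after 12 h without serum, and 3 of cells with SRSF1 knockdown after 12 h without serum. The 6 samples with knockdown of SRPK1 or UPF1 were not analysed here. All groups are of the same line, and 0 libraries are labelled as carrying a control hairpin, so the hairpin itself and the loss of SRSF1 cannot be told apart. Nothing in the labels says whether replicates were separate cultures, so each p-value reflects only how far these libraries differ among themselves, which may be technical variation.

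Double-stranded RNA in the cytoplasm is read by the helicases RIG-I (the product of DDX58) and MDA5 (the product of IFIH1), which signal through MAVS to the kinases TBK1 and IKKe and to IRF3, and so to type I interferon. Interferon binds the receptor chains IFNAR1 and IFNAR2, and the kinases JAK1 and TYK2 then lead to assembly of the factor ISGF3, which holds STAT2 and IRF9 and binds the interferon-stimulated response element in promoters. The antiviral genes so induced include the kinase PKR (the product of EIF2AK2), which phosphorylates eIF2 alpha on meeting double-stranded RNA and so lowers translation, and the interferon-induced form of the editing enzyme ADAR1, which turns adenosine into inosine in such RNA and keeps cellular RNA from being sensed.

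The promoter sequences of the 9 genes were read from RefSeq (GRCh38.p14), in windows from 250 bases before each start site to 50 after it. All 9 genes matched. Each window was searched on both strands for the interferon-stimulated response element, taken as 2 copies of GAAA with any 2 bases between them, and for the gamma-activated site, an element of interferon gamma signalling, written as TTCNNNGAA. The first stood in 3.57% and the second in 7.66% of 35116 RefSeq promoter windows of this length. Stretches of 90 bases are shown for the 7 genes with a match, since both are elements of interferon signalling. Capitals mark the matches, and each sequence runs 5′ to 3′ on the gene's own strand, so that a response element on the other strand reads as 2 copies of TTTC with 2 bases between them.
IFIT1 (chr10:89392473-89392562, plus strand): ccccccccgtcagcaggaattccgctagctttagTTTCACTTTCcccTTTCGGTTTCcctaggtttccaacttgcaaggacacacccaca
ISG15 (chr1:1013346-1013435, plus strand): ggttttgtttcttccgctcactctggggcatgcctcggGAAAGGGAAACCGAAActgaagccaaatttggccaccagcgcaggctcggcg
IFI6 (chr1:27672268-27672357, minus strand): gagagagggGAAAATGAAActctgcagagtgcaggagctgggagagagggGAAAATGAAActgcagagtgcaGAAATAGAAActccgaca
IFI27 (chr14:94110594-94110683, plus strand): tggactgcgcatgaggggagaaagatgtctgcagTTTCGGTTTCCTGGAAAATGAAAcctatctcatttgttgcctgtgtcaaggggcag
EIF2AK2 (chr2:37156977-37157066, minus strand): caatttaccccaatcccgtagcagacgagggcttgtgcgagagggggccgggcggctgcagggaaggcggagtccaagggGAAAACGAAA
IRF1 (chr5:132490849-132490938, minus strand): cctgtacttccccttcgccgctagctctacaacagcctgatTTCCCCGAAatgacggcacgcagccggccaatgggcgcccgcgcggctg
IRF9 (chr14:24161161-24161250, plus strand): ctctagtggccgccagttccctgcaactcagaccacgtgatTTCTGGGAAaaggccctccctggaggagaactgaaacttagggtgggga

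Of the 9 genes, 5 held the response element: IFIT1 and IFI27 with 2 matches each, ISG15 with 2 that overlap, IFI6 with 3 and EIF2AK2 with 1. In IFI6, 2 of the 3 matches are the same 10 letters. In IFI27 a match to the gamma-activated site lies between the 2 response elements and shares bases with both. In EIF2AK2 the match runs across the start site itself, from base -6 to base 3 counted from the start as 0, whereas the matches of IFIT1, ISG15, IFI6 and IFI27 lie between bases -156 and -84 of the first window. IRF1 at base -124 and IRF9 at base -63 held the gamma-activated site and no response element. STAT2 and ADAR held neither set of letters in these windows. By the spans in the table, the stretches of ISG15, IFI27, EIF2AK2 and IRF1 lie inside the gene and that of IFIT1 partly so, downstream of other annotated starts, whereas those of IFI6 and IRF9 lie outside. The spans of GENCODE release 29 place IRF1 and IRF9 otherwise. There IRF1 ends at 132490798, so its stretch lies outside, and IRF9 begins at 24161053, so its stretch lies inside. A match is a description of letters, and binding was not measured here.

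**Figure D1:**
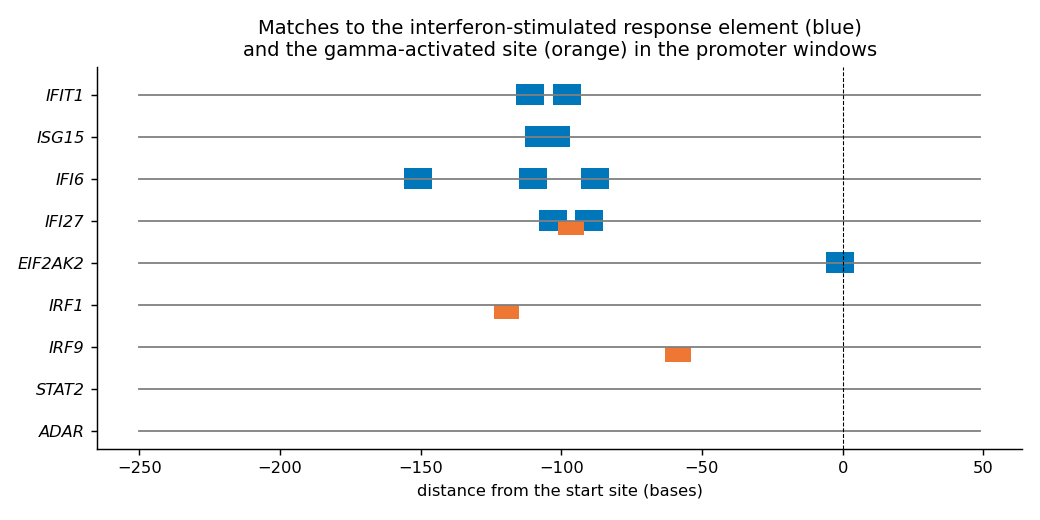
Positions of matches to the interferon-stimulated response element (blue) and the gamma-activated site (orange) in the first RefSeq promoter window of each gene, in bases from the start site (0, dashed). The blue marks of IFIT1, ISG15, IFI6 and IFI27 stand 5′ of the start, that of EIF2AK2 crosses it, and STAT2 and ADAR have none.

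Each deposited value is a gene's read count over a size factor common to its library. These are called normalized counts below, although the table is named for FPKM. The 8 libraries whose reads could be recovered held 11775367 to 15231651 reads, and 15166 to 15720 genes had a read. For tests, counts were divided by gene length and a common total to give FPKM, and log2(FPKM + 1) was compared with limma over the 11123 genes that reached 1 FPKM in 3 or more libraries. Fold changes on this scale understate those of low genes. Of the 9 genes, 7 passed this filter, and IRF1 and IRF9 did not. SRSF1, the targeted gene, gave normalized counts of 2588, 2485 and 2472 in fed cells, 3344, 3189 and 3205 in starved cells, and 2390, 2456 and 2382 in the knockdown. It fell by 25.8% against starved cells (log2 difference -0.42 ± 0.072 SE, limma adjusted p = 0.000997), and it did not pass the test against fed cells (-0.06, limma adjusted p = 0.59). In bulk RNA, fewer cells that express a gene and less of its RNA per cell cannot be told apart. The labels call the cells renal epithelial. Of 14 markers of epithelium and embryonic kidney, 10 passed the filter, among them KRT8, KRT18, VIM and SIX2, while KRT19, EPCAM, PAX2 and PAX8 did not. Of 16 immune cell markers 14 were under the filter, and CD3E, CD3D, CD68 and CLEC4C were at 0 in all 9 libraries.

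Knockdown replicate 3 and, to a lesser extent, starved replicate 2 stood apart and bear on several of the 9 genes. In knockdown replicate 3, tested genes under 1 kb had a median log2 difference of -0.57 from the other 2 knockdown libraries (120 genes), those of 1 to 2 kb -0.40 (749 genes), and those over 8 kb 0.19 (2706 genes). Starved replicate 2 went the other way, with 0.42 for genes under 1 kb and -0.10 for genes over 8 kb. The summed level of the 16 immune markers was 13.7 FPKM in knockdown replicate 3, against 4.50 and 4.94 in the other knockdown libraries, 5.41 to 6.44 in starved cells and 3.24 to 4.17 in fed cells. LYZ had a normalized count of 128 there, CD14 58.9 and TYROBP 28.9, and CD14 was the marker called in knockdown against fed cells (0.79, limma adjusted p = 0.0287). CD14 met the filter only through libraries without serum (fed mean 0.425 FPKM), and its call is given with knockdown replicate 3 only. ISG15 (867 bases of exon) and IFI6 (936 bases) are the 2 shortest of the 9 genes. For the 9 genes, results that rest on knockdown replicate 3 are given with and without it, and the part that gene length or the immune markers have in them was not tested.

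**Figure D2:**
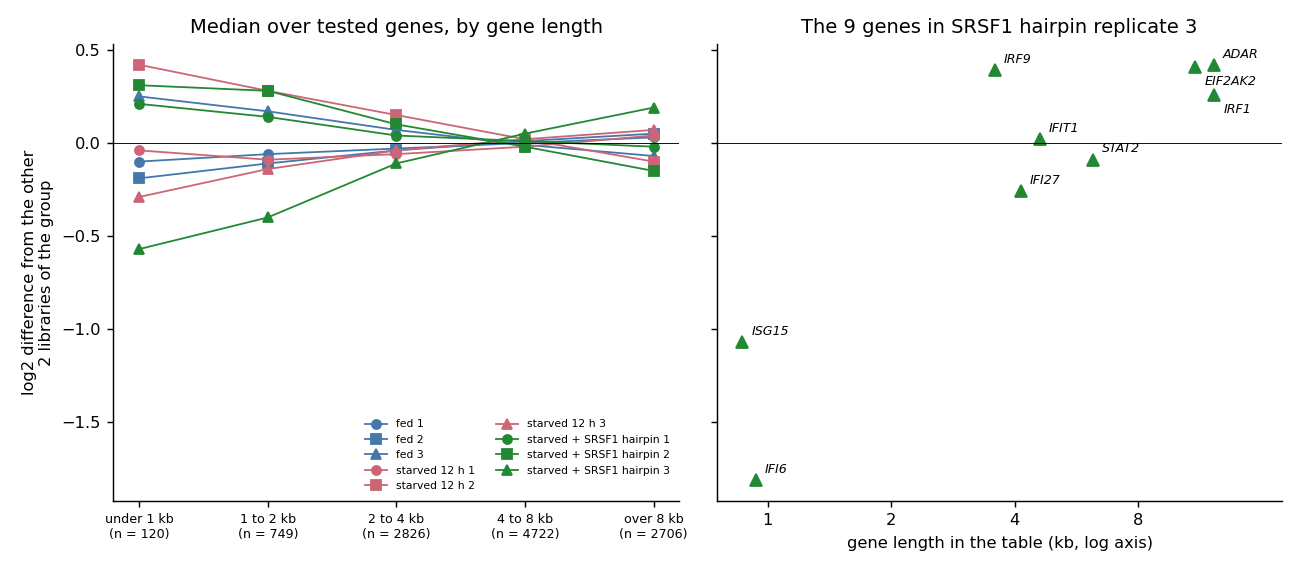
Left, the median log2 difference of each library from the other 2 of its group, for tested genes in 5 length classes (n under each class). Right, the same difference for the 9 genes in knockdown (SRSF1 hairpin) replicate 3, by gene length in kb on a log axis. The knockdown replicate 3 line runs from -0.57 for genes under 1 kb to 0.19 for genes over 8 kb, and IFI6 and ISG15 sit at -1.81 and -1.07.

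The 9 genes spanned a wide range of levels. By length-scaled level over all 9 libraries, ISG15 came first with a mean of 91.0 FPKM, above 96.9% of the tested genes, followed by IFIT1 (64.7 FPKM), ADAR (37.5 FPKM), IFI6 (24.0 FPKM), EIF2AK2 (11.0 FPKM) and STAT2 (7.16 FPKM). IFI27 stood near the filter at 1.09 FPKM, and IRF1 (0.46 FPKM) and IRF9 (0.421 FPKM) below it. In fed cells, ISG15 was at 83.5 ± 8.89 FPKM, IFIT1 at 61.3 ± 2.78, ADAR at 36.6 ± 1.23, IFI6 at 23.9 ± 2.73, STAT2 at 8.76 ± 0.639, EIF2AK2 at 8.65 ± 0.316 and IFI27 at 0.802 ± 0.273 (SD, n = 3). STAT2 and EIF2AK2 are neighbours in that order whose fed levels lie within their spread, and IRF1 (0.400 ± 0.0112) and IRF9 (0.360 ± 0.0903) are another such pair. IFIT1 and ISG15 were thus among the most abundant of the tested genes in cells that had received neither treatment, while IRF9, the DNA-contacting subunit of ISGF3, had 14 to 22 reads per fed library.

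**Figure D3:**
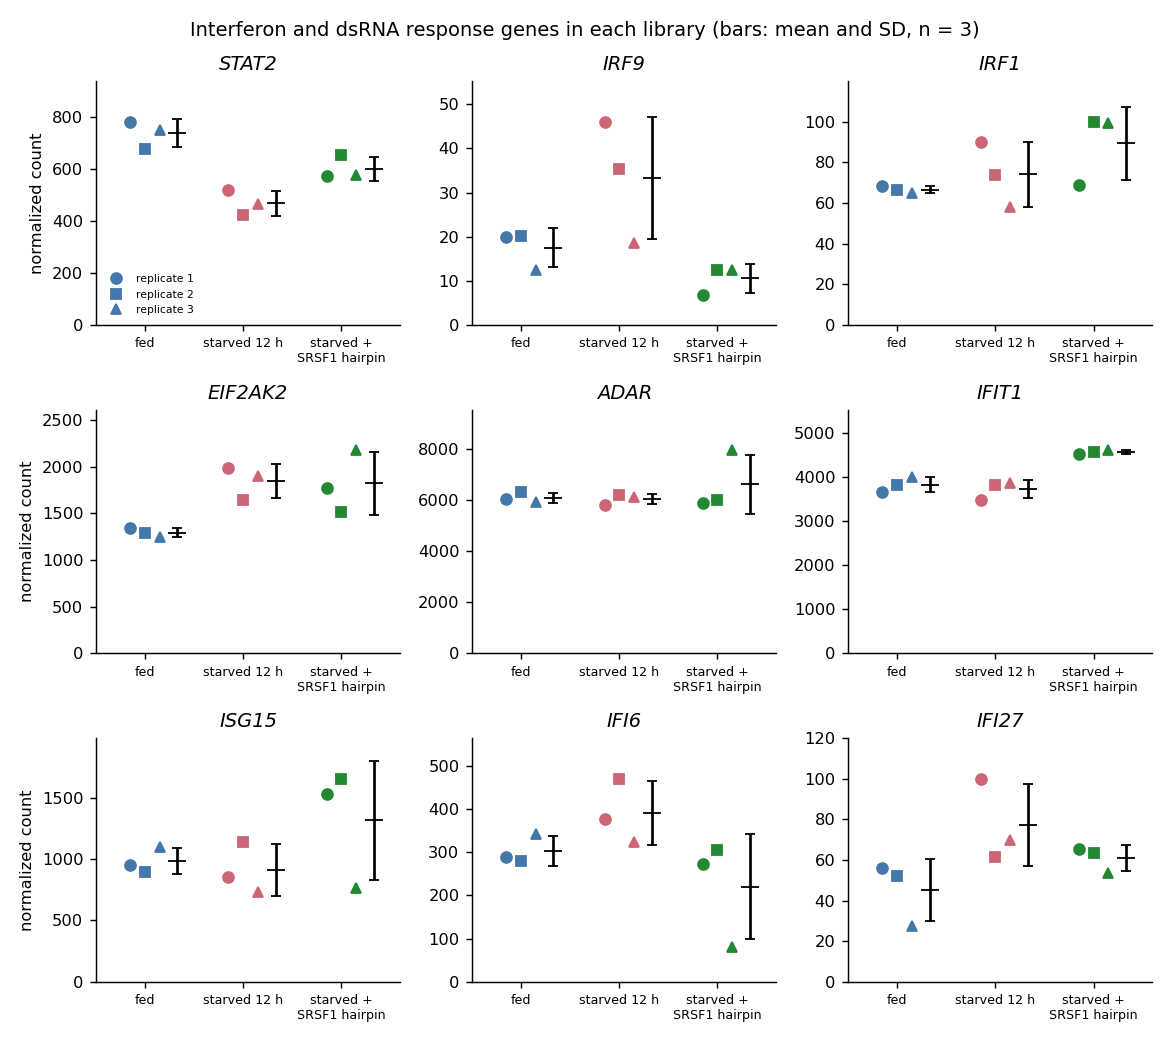
Normalized counts of the 9 genes in each library, with replicates 1, 2 and 3 as circle, square and triangle, and the mean and SD of each group (n = 3) as black bars; every axis starts at 0. STAT2 is lowest in the starved libraries, IFIT1 is highest in the knockdown libraries, and knockdown replicate 3 lies apart for IFI6, ISG15 and ADAR.

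STAT2 (ENSG00000170581; GRCh38 chromosome 12, 56341597 to 56360167, minus strand), which carries the transactivation domain of ISGF3, fell with serum withdrawal and stood between the other groups in the knockdown. Its normalized counts were 782, 677 and 751 in fed cells, 519, 423 and 464 in starved cells, and 573, 652 and 575 with SRSF1 knockdown. No 2 of these 3 groups overlap. It fell by 36.4% in starved against fed cells (log2 difference -0.57 ± 0.095 SE, limma adjusted p = 0.000832), and all 24 alternative settings kept the call, with adjusted p of 0.000576 to 0.00592. Against starved cells, the knockdown was 28.1% higher (0.31 ± 0.095, limma adjusted p = 0.0213). That call was lost when only the 2 groups were fitted (limma adjusted p = 0.0511) and without starved replicate 2 (0.0628), starved replicate 3 (0.0605) or knockdown replicate 2 (0.0723). Knockdown against fed cells gave -0.26 ± 0.095 and did not pass (limma adjusted p = 0.0762). All 3 comparisons share libraries with one another: the starved libraries stand in the first and second, so a high or low starved value moves both.

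IRF9 (ENSG00000213928; GRCh38 chromosome 14, 24161265 to 24166565, plus strand), the subunit through which ISGF3 contacts DNA, was scarce in every library. Its normalized counts were 19.8, 20.2 and 12.4 in fed cells, 46.1, 35.3 and 18.6 in starved cells, and 6.75, 12.4 and 12.4 in the knockdown. The 3 knockdown values lie below all 3 starved values, and the fed and starved groups overlap. Each value rests on few reads: 22, 21 and 14 in fed cells, 32 and 16 in the 2 starved libraries with recovered reads, and 6, 14 and 12 in the knockdown. Under the level filter it had no test. With no filter, over 17293 genes, it was lower in the knockdown than in starved cells (log2 difference of FPKM + 1 -0.46 ± 0.11, limma adjusted p = 0.0152), as it was on log2(normalized count + 1) (-1.53 ± 0.40, limma adjusted p = 0.0114) and by edgeR's quasi-likelihood test on 8 libraries (-1.33, adjusted p = 0.0382). Starved against fed cells did not pass in any of these 3 fits (adjusted p of 0.0821, 0.139 and 0.274 in the same order). The gene shares its span and strand with the entry ENSG00000259529, whose mean normalized counts were 8.86 in fed, 18.2 in starved and 5.45 in knockdown libraries, and how the authors' counting split reads between them is not given in the sources used here.

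IRF1 (ENSG00000125347; GRCh38 chromosome 5, 132440440 to 132508719, minus strand), a transcription factor that interferon gamma induces through the gamma-activated site, was under the filter too. It had normalized counts of 68.5, 66.4 and 64.7 in fed cells, 90.1, 73.8 and 58.1 in starved cells, and 68.7, 99.99 and 99.2 in the knockdown. The fed values are close together, the starved values spread to both sides of them, and the 3 knockdown values lie just or well above the fed ones. No fit called it in any comparison. With no filter the log2 differences of FPKM + 1 were 0.04 (starved against fed, limma adjusted p = 0.679), 0.09 (knockdown against starved, 0.339) and 0.13 (knockdown against fed, 0.227). The span in the table is wider than the one that GENCODE release 29 gives (132481609 to 132490798), so its length-scaled level is less certain than those of the others.

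EIF2AK2 (ENSG00000055332; GRCh38 chromosome 2, 37099210 to 37157522, minus strand), which encodes the double-stranded RNA-dependent kinase PKR, was higher in both groups without serum. Normalized counts were 1345, 1287 and 1251 in fed cells, 1989, 1641 and 1901 in starved cells, and 1775, 1512 and 2178 in the knockdown. Every library without serum lies above every fed library, and the starved and knockdown groups overlap. Starvation raised it by 42.4% (0.46 ± 0.12, limma adjusted p = 0.0113), a call that TPM scaling ended (adjusted p = 0.0778). The knockdown was 40.8% above fed cells (0.44 ± 0.12, limma adjusted p = 0.0326), and this call was lost with no filter (0.0543), with TPM scaling (0.104), and without any 1 fed library (0.0852, 0.095 and 0.098) or knockdown replicate 1 (0.0659). Against starved cells the knockdown difference was -0.03 ± 0.12 (limma adjusted p = 0.881). Without starved replicate 2 and knockdown replicate 3 it was -0.23 (limma adjusted p = 0.0469), and without knockdown replicate 2 alone it was 0.09. The gene overlaps GPATCH11 on the other strand, whose normalized counts were 667, 640 and 621 in fed, 970, 815 and 940 in starved, and 576, 596 and 769 in knockdown libraries. Whether the counting used strand is not given in the sources used here, so reads in a stretch that overlapping genes share cannot be told apart. For EIF2AK2 and GPATCH11 that stretch is short: the span of GPATCH11 ends at 37099244 and that of EIF2AK2 begins at 37099210.

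ADAR (ENSG00000160710; GRCh38 chromosome 1, 154581695 to 154628013, minus strand), the RNA editing enzyme, differed little between groups. Normalized counts were 6033, 6298 and 5895 in fed cells, 5793, 6174 and 6112 in starved cells, and 5871, 5997 and 7937 in the knockdown. Knockdown replicate 3 is the one value away from the rest. No comparison passed: -0.01 ± 0.11 for starved against fed cells (limma adjusted p = 0.946), 0.12 ± 0.11 for knockdown against starved (0.424) and 0.10 ± 0.11 for knockdown against fed (0.546). Without knockdown replicate 3 the last 2 changed sign, to -0.02 and -0.03. The table gives 1 value per gene, so the constitutive and the interferon-induced forms of ADAR1 were not separated.

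IFIT1 (ENSG00000185745; GRCh38 chromosome 10, 89392546 to 89406487, plus strand), whose protein binds RNA with a foreign 5′ end and keeps it from being translated, was highest in the knockdown. Normalized counts were 3666, 3827 and 4013 in fed cells, 3495, 3826 and 3880 in starved cells, and 4525, 4577 and 4619 in the knockdown. The knockdown libraries have a CV of 1.03% and lie above all 6 others, while fed and starved libraries overlap. Against starved cells it rose by 22.5% (0.29 ± 0.082, limma adjusted p = 0.015). This call was lost when only these 2 groups were fitted (0.0535), without starved replicate 1 (0.0591) and by edgeR's quasi-likelihood test (adjusted p = 0.054). Without knockdown replicate 3 it was kept. Against fed cells the knockdown was 19.3% higher, just short of the threshold (0.25 ± 0.082, limma adjusted p = 0.0567), and 6 of 24 alternatives passed. Starved against fed cells gave -0.04 ± 0.082 (limma adjusted p = 0.739). IFIT1 lies inside the span of LIPA on the other strand, which moved otherwise: its mean normalized counts were 2157 in fed, 3700 in starved and 2091 in knockdown libraries.

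ISG15 (ENSG00000187608; GRCh38 chromosome 1, 1001138 to 1014540, plus strand) encodes a ubiquitin-like protein that is attached to other proteins after interferon. Its normalized counts were 948, 898 and 1099 in fed cells, 852, 1143 and 735 in starved cells, and 1534, 1656 and 761 in the knockdown. Knockdown replicates 1 and 2 lie above every fed and starved library, and replicate 3 lies below every fed one. With all libraries the knockdown did not pass against starved cells (0.47 ± 0.26, limma adjusted p = 0.165) or fed cells (0.35 ± 0.26, 0.378). Without knockdown replicate 3 both passed, at 0.83 ± 0.17 (limma adjusted p = 0.00273) and 0.70 ± 0.17 (0.017). Replicate 3 stood at -1.07 on the log2 scale from the other 2 knockdown libraries, and 22.5% of the 120 tested genes under 1 kb were lower still. Starved against fed cells gave -0.13 ± 0.26 (limma adjusted p = 0.729), and it passed without starved replicate 2 and knockdown replicate 3 (-0.30, 0.0263).

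IFI6 (ENSG00000126709; GRCh38 chromosome 1, 27666064 to 27672212, minus strand) encodes a small membrane protein that limits flavivirus replication at the endoplasmic reticulum. Normalized counts were 288, 279 and 343 in fed cells, 377, 471 and 324 in starved cells, and 274, 305 and 81.6 in the knockdown. All 3 knockdown libraries lie below all 3 starved ones, and replicate 3 lies far below every other library. Knockdown against starved cells gave -0.96 ± 0.37 and did not pass (limma adjusted p = 0.0539). Without knockdown replicate 3 the difference was smaller and its error too, -0.40 ± 0.15 (limma adjusted p = 0.0428), and without starved replicate 2 as well it was -0.26 (0.0654). The comparison also passed without knockdown replicate 1 (-1.20, limma adjusted p = 0.0366) and without knockdown replicate 2 (-1.28, 0.0174). In replicate 3, IFI6 was at -1.81 on the log2 scale from the other 2 knockdown libraries, and 4.17% of the tested genes under 1 kb were lower still. Starved against fed cells (0.34 ± 0.37, limma adjusted p = 0.489) and knockdown against fed cells (-0.62 ± 0.37, 0.258) did not pass, and without knockdown replicate 3 the latter was -0.06.

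IFI27 (ENSG00000165949; GRCh38 chromosome 14, 94104836 to 94116698, plus strand), a strongly interferon-inducible gene for a mitochondrial and nuclear membrane protein, was low in all libraries. Normalized counts were 55.8, 51.9 and 27.5 in fed cells, 100.2, 61.7 and 69.7 in starved cells, and 65.3, 63.7 and 53.7 in the knockdown. The starved libraries lie above the fed ones, and the knockdown overlaps both groups. IFI27 met the filter only through libraries without serum, since fed levels were 0.9927, 0.9234 and 0.4885 FPKM. The filter was thus met through the group in which it was called higher. It rose in starved against fed cells by 71.2% of the mean count (0.40 ± 0.13, limma adjusted p = 0.0349). The call was lost in 7 of 23 alternatives, among them TPM scaling (0.0993), edgeR (adjusted p = 0.188), and leaving out fed replicate 3 (0.137) or starved replicate 1 (0.133). The knockdown differed from neither starved cells (-0.18 ± 0.13, limma adjusted p = 0.3) nor fed cells (0.22 ± 0.13, 0.273) at the threshold.

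Counted together, 3 of the 7 tested genes passed in starved against fed cells, EIF2AK2 and IFI27 upward and STAT2 downward, where 42.8% of all 11123 tested genes did. Of these, IFI27 met the filter only through libraries without serum. In knockdown against starved cells 2 passed, STAT2 and IFIT1, both upward, against 46.4% of all tested genes. In knockdown against fed cells EIF2AK2 alone passed, against 18.5%. The shares among these 7 genes are close to the background in both comparisons with fed cells, and lie below it in knockdown against starved cells. Groups did not overlap for 3 of the 7 tested genes in each comparison, where 59.2% (starved against fed), 51.0% (knockdown against starved) and 41.1% (knockdown against fed) of all tested genes had no overlap. Their median log2 differences were -0.01, 0.12 and 0.22, beside 0.03, -0.04 and -0.01 over all tested genes.

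**Figure D4:**
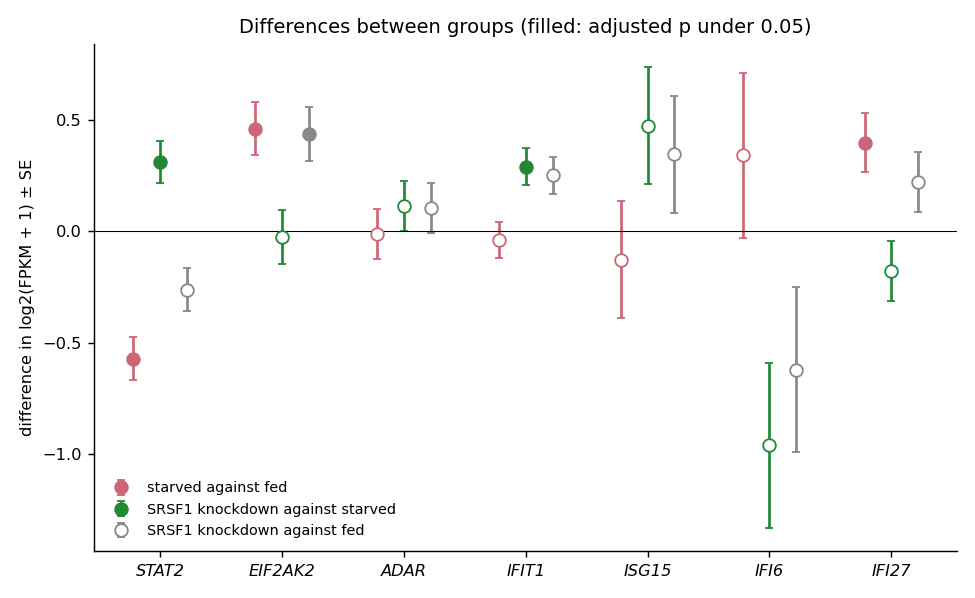
Differences in log2(FPKM + 1) ± SE for the 7 tested genes in 3 comparisons; filled points have a limma adjusted p under 0.05. STAT2 is at -0.57 in starved against fed cells and at 0.31 in knockdown against starved cells, and the widest error bars are those of IFI6 and ISG15.

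Each tested gene was set beside the genes whose values followed the most similar course over the 9 libraries, by the smallest root mean square difference of centred log2(FPKM + 1) among 11122 candidates. For STAT2 these were GAD1 (0.056) and BCAM (0.076), for EIF2AK2 SPTY2D1 (0.058) and KMT2C (0.061), and for ADAR ZNF142 (0.037) and NCAPD2 (0.038). For IFIT1 they were P4HA2 (0.041) and EXT2 (0.047), for IFI6 AURKAIP1 (0.067) and MRPS12 (0.139), and for IFI27 RNF19A and C1QTNF6 (0.1 each). For ISG15 they were EIF6 (0.118) and ATG101 (0.119). None of these genes is on the interferon and RNA-sensing lists described next. Those lists hold 121 of the 11123 tested genes, a share so small that no conclusion is drawn from this. Points share libraries, so depth and the length trend of knockdown replicate 3 enter the measure.

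Upstream of the 9 genes, transcripts of the interferons themselves were close to absent. Of 21 ligand genes, 11 were at 0 in all 9 libraries, among them IFNG, IFNA2 and IFNK, and 20 were under the filter. IFNB1, the type I interferon that most cells make first, had 11, 13 and 19 reads in fed cells, 19 and 14 in the 2 starved libraries with recovered reads, and 18, 17 and 9 in the knockdown. It passed in no comparison (limma adjusted p of 0.0741 for starved against fed cells, 0.147 for knockdown against starved and 0.741 for knockdown against fed). The receptor chain IFNAR1 had a mean of 14.1 FPKM in fed cells, and IFNAR2, its partner, 0.0638 FPKM. IFNAR2 overlaps ENSG00000249624 on the same strand, which was at 0 in all 9 libraries, and how reads in overlapping genes were counted is not given in the sources used here. Of 9 receptor and kinase genes 7 were tested. IFNGR2, a chain of the interferon gamma receptor, had normalized counts of 429, 361 and 422 in fed cells, 189, 252 and 187 in starved cells, and 517, 474 and 510 in the knockdown, and the groups do not overlap. It fell with starvation (-0.85 ± 0.11, limma adjusted p = 0.000222) and was higher in the knockdown than in starved cells (1.15 ± 0.11, limma adjusted p = 3.29e-05), and overlaps TMEM50B on the other strand. IFNGR1, its partner chain, went the other way, with 0.52 and -0.69 (limma adjusted p of 0.00286 and 0.000512). IFNLR1, of the interferon lambda receptor, was higher than in fed cells in both groups without serum (0.65 and 0.58, limma adjusted p of 0.000244 and 0.00199).

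Of 11 STAT and IRF genes, 5 were tested, and 6, IRF1, IRF7 and IRF9 among them, were under the filter. Beside STAT2, starvation lowered IRF8 (-0.39, limma adjusted p = 0.00802), so that 0 rose and 2 fell, where 42.8% of all tested genes were called. In knockdown against starved cells 3 rose and 0 fell, where 46.4% were called. IRF2, which binds response elements and can repress them, had normalized counts of 94.6, 70.2 and 73.6 in fed cells, 69.1, 78.2 and 108 in starved cells, and 173, 155 and 189 in the knockdown. Its knockdown values lie above all others, at 0.76 ± 0.13 against starved cells (limma adjusted p = 0.000788) and 0.82 ± 0.13 against fed cells (0.00213). IRF8 was higher in the knockdown than in starved cells (0.53, limma adjusted p = 0.00129). The median of the 5 tested genes was -0.27 with starvation and 0.31 in knockdown against starved cells. The 10 tested markers of epithelium and embryonic kidney went the same way: 0 rose and 5 fell with starvation (median -0.33), and 5 rose and 0 fell in knockdown against starved cells (median 0.275). The summed level of all 14 was 93.7 to 107.6 FPKM in fed, 73.2 to 88.2 in starved and 107.2 to 130.2 in knockdown libraries. Their part in the result was not tested.

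Of 34 RNA sensors and adaptors 24 were tested. The helicase gene DDX58 stood at 0.094, 0.0631 and 0.131 FPKM in fed, starved and knockdown cells, under the filter, as were TLR3, TLR7, TLR8, ZBP1, DHX58, OAS1, OAS2 and OAS3, while ADARB2 was at 0 throughout. IFIH1, named after its values were seen, was tested, with means of 1.13, 2.30 and 1.54 FPKM in the same order. It rose with starvation (0.63, limma adjusted p = 0.00333) and was lower in the knockdown than in starved cells (-0.39, 0.0332), where the groups overlap and the call was lost with TPM scaling (0.101) and with edgeR (adjusted p = 0.107). In starved against fed cells 8 rose and 5 fell, where 42.8% of all tested genes were called. The largest rise was of ZC3HAV1, the zinc finger antiviral protein ZAP that binds CG-rich viral RNA. Its normalized counts were 1856, 1947 and 1618 in fed cells, 5511, 4884 and 5689 in starved cells, and 2106, 1941 and 3049 in the knockdown. The starved libraries stand well above all others, at 1.51 ± 0.15 against fed cells (limma adjusted p = 3.62e-05), and the knockdown was lower than starved cells by -1.17 ± 0.15 (limma adjusted p = 0.000166). RNF135, a ubiquitin ligase for RIG-I, IKBKE, which encodes the kinase IKKe, and TARBP2, the Dicer partner TRBP that also inhibits PKR, fell with starvation (-0.87, -0.77 and -0.75, limma adjusted p of 0.00582, 0.00103 and 0.0171). RNF135 and TARBP2 were higher in the knockdown than in starved cells (0.67 each, limma adjusted p of 0.0191 and 0.0276), and edgeR did not call either (adjusted p = 0.0726 and 0.0528). In knockdown against starved cells 7 rose and 7 fell, where 46.4% of all tested genes were called. In knockdown against fed cells, where 18.5% were called, 4 rose and 0 fell, led by OASL. With TPM scaling the other 3, ZNFX1, EIF2AK2 and IKBKG, no longer passed (limma adjusted p of 0.0628, 0.104 and 0.158), while OASL did. Of 7 DNA sensor genes, CGAS, STING1, IFI16, AIM2 and TREX1 were under the filter, and SAMHD1, a nucleotide hydrolase that restricts retroviruses, rose with starvation (0.53, limma adjusted p = 0.00032) and was lower in the knockdown than in starved cells (-0.67, limma adjusted p = 6.23e-05).

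All 12 listed genes for eIF2 alpha kinases, phosphatase subunits and partners were tested. With starvation 5 rose and 1 fell. DNAJC3, which encodes p58IPK, an inhibitor of PKR and of the related kinase PERK, had normalized counts of 1446, 1402 and 1354 in fed cells, 3187, 2633 and 3218 in starved cells, and 1071, 962 and 995 in the knockdown. The groups do not overlap: DNAJC3 rose with starvation (1.06 ± 0.094, limma adjusted p = 1.88e-05) and was lower in the knockdown than in starved cells (-1.50 ± 0.094, limma adjusted p = 2.14e-06) and fed cells (-0.45, limma adjusted p = 0.0103). EIF2AK3, the gene of PERK, and PPP1R15B, the constitutive eIF2 alpha phosphatase subunit, rose with starvation (0.59 and 0.66, limma adjusted p of 0.000411 and 0.000199). EIF2AK3 met the filter only through libraries without serum, with means of 0.857, 1.79 and 1.27 FPKM in fed, starved and knockdown cells. PPP1R15A, the stress-induced phosphatase subunit GADD34, had normalized counts of 577, 587 and 649 in fed cells, 760, 824 and 678 in starved cells, and 1663, 1802 and 1574 in the knockdown. All knockdown values lie above the other 6, at 1.11 ± 0.095 against starved cells (limma adjusted p = 1.3e-05) and 1.41 ± 0.095 against fed cells (1.01e-05). In knockdown against starved cells 1 of the 12 rose and 4 fell, and against fed cells 4 rose and 2 fell. Beside these and the counts that follow, 42.8% of all tested genes were called in starved against fed cells. In knockdown against starved cells 46.4% were, and in knockdown against fed cells 18.5%. Among 20 tested of 21 genes that bind double-stranded RNA or process small RNA, 6 rose and 1 fell with starvation, led by the Argonaute gene AGO3 (0.76, limma adjusted p = 0.00042). AGO3 was lower in the knockdown than in starved cells (-0.55, limma adjusted p = 0.00264), where 2 of the 20 rose and 3 fell. AGO2 was above fed cells in the knockdown (0.62, limma adjusted p = 0.00125), where 2 rose and 1 fell. It was above them to a like extent in starved cells without the knockdown (0.61, limma adjusted p = 0.000356). Its means were 15.8 FPKM in starved and 16.0 FPKM in knockdown cells.

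The list of interferon-induced effectors holds 82 genes, IFIT1, ISG15, IFI6 and IFI27 among them, and 46 were tested. The others include classical markers of an interferon response: MX1 had means of 0.0113, 0.0217 and 0.0155 FPKM (fed, starved, knockdown), OAS1 of 0.019, 0.0392 and 0.0245 FPKM, with XAF1 at 0 in all fed and starved libraries, and RTP4 at 0 in all 9. So ISG15 and IFIT1 were high in the same libraries in which MX1, OAS1, XAF1 and RTP4 were at or near 0. MX1, OAS1, XAF1 and RTP4 were chosen after their values were seen. Of the 82 effectors, 46 passed the filter and 36 were under it. Among those that passed, IFIT2 had a mean of 29.2 FPKM in fed cells, IFIT3 of 9.65 and OASL of 7.33. In starved against fed cells 11 effectors rose and 8 fell, with a median of 0.01. In knockdown against starved cells 10 rose and 12 fell, with a median of 0.06, and against fed cells 4 rose and 6 fell, with a median of 0.04. The medians over all tested genes were 0.03, -0.04 and -0.01, and 42.8%, 46.4% and 18.5% of them were called, in the same order.

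**Figure D5:**
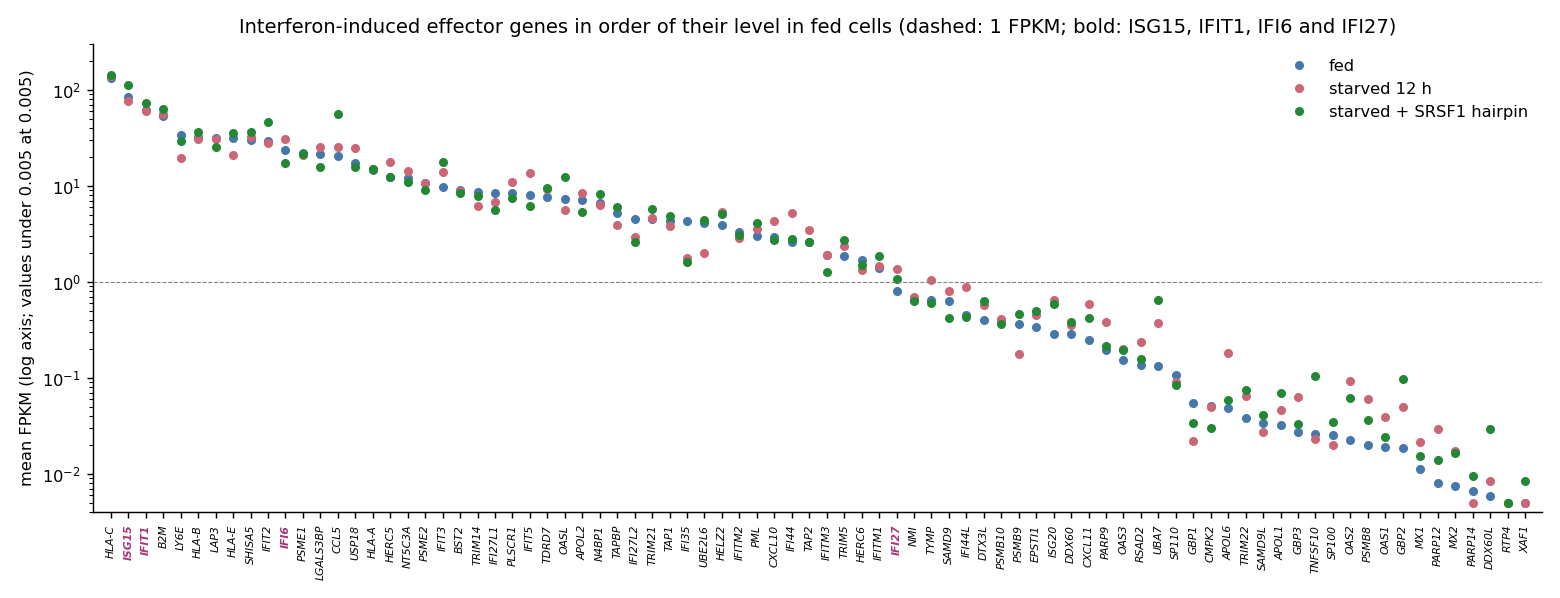
Mean FPKM (log axis) of 82 interferon-induced effector genes in fed, starved and knockdown (SRSF1 hairpin) cells, 3 libraries each, in order of the fed level; the dashed line is 1 FPKM, values under 0.005 are drawn at 0.005, and ISG15, IFIT1, IFI6 and IFI27 are in bold. ISG15 and IFIT1 stand near the top at 83.5 and 61.3 FPKM in fed cells, and MX1, RTP4 and XAF1 at the lower end.

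The effectors that rose in the knockdown against starved and also against fed cells were CCL5, OASL and IFIT2, in comparisons that share the knockdown libraries. CCL5, a chemokine that attracts leukocytes, had normalized counts of 354, 422 and 459 in fed cells, 457, 594 and 482 in starved cells, and 1092, 1186 and 1101 in the knockdown. Its knockdown mean was 2.2 times that of starved and 2.73 times that of fed cells (1.12 ± 0.12 and 1.41 ± 0.12, limma adjusted p of 5.15e-05 and 4.87e-05). OASL, an oligoadenylate synthetase relative that enhances RIG-I signalling, had 579, 612 and 692 in fed cells, 393, 549 and 498 in starved cells, and 1027, 1161 and 971 in the knockdown. Its groups do not overlap, and it rose against starved (1.02 ± 0.12, limma adjusted p = 8.55e-05) and fed cells (0.67 ± 0.12, 0.00416). IFIT2, a neighbour of IFIT1 in sequence family, was named after its values were seen. Like IFIT1, it lies inside the span of LIPA on the other strand. It had 1735, 1649 and 1755 in fed cells, 1694, 1465 and 1783 in starved cells, and 2834, 2409 and 2935 in the knockdown, and rose against both (0.71 and 0.65, limma adjusted p of 0.000344 and 0.00242). CCL5 and OASL kept both calls in all 7 alternatives tried for the pathway genes, without knockdown replicate 3 among them.

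Other effectors went down or followed starvation. LGALS3BP, APOL2, LAP3 and IFI27L1, named after their values were seen, were among those with every knockdown library below all fed and starved ones. Mean normalized counts in fed, starved and knockdown cells were 986, 1171 and 724 for LGALS3BP and 331, 386 and 249 for APOL2. They were 1613, 1574 and 1296 for LAP3, and 272, 216 and 180 for IFI27L1. IFIT5, another RNA-binding IFIT gene, had normalized counts of 508, 462 and 466 in fed cells, 884, 677 and 881 in starved cells, and 399, 311 and 392 in the knockdown, and was lower in the knockdown than in starved cells (-1.03 ± 0.12, limma adjusted p = 8.66e-05). IFIT3, which binds and stabilises IFIT1, was above fed cells in the knockdown (0.79 ± 0.13, limma adjusted p = 0.00253). It was above them in starved cells too (0.47, limma adjusted p = 0.0119), and it overlaps LIPA as IFIT1 and IFIT2 do. IFI35 fell with starvation and was below fed cells in the knockdown (-0.95 and -1.06, limma adjusted p of 0.00453 and 0.0077). IFI44 rose with starvation (0.79, limma adjusted p = 0.000921) and LY6E fell (-0.80, limma adjusted p = 0.00369). IFIT1, IFIT2, IFIT3 and IFIT5 thus did not follow 1 course: in knockdown against starved cells IFIT1 and IFIT2 rose and IFIT5 fell.

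The enzymes that attach and remove ISG15 split as well. UBE2L6, the conjugating enzyme for ISG15, had normalized counts of 98.2, 118 and 129 in fed cells, 52.1, 71.6 and 45.3 in starved cells, and 126, 123 and 117 in the knockdown. It fell with starvation (-0.77 ± 0.12, limma adjusted p = 0.000672) and was higher in the knockdown than in starved cells (0.84 ± 0.12, limma adjusted p = 0.000364), with starved values below all others. HERC5, the main ligase for ISG15, rose with starvation (0.48, limma adjusted p = 0.00449), with mean normalized counts of 793.5, 1137 and 795.7 in fed, starved and knockdown cells. USP18, which removes ISG15 and blocks the type I receptor, rose with starvation too (0.48, limma adjusted p = 0.00804). It was lower in the knockdown than in starved cells (-0.62, limma adjusted p = 0.00185), and near-identical copies in the genome make its count less certain. UBA7, the activating enzyme, was under the filter. SOCS3, a feedback inhibitor of JAK kinases, was higher in the knockdown than in starved cells (0.70, limma adjusted p = 0.000201). Its mean normalized counts were 30.4, 15.6 and 48.9 in fed, starved and knockdown cells. It met the filter only through the knockdown libraries, the group in which it was called higher. Of the 14 tested of 19 feedback and conjugation genes, 4 rose and 3 fell with starvation, 3 rose and 5 fell in knockdown against starved cells, and 1 rose and 3 fell against fed cells. Over all tested genes 42.8%, 46.4% and 18.5% were called in the same order.

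Over all 9 lists together, 202 genes with the 9 included, 121 were tested. Of these, 35 rose and 18 fell with starvation, 25 rose and 33 fell in knockdown against starved cells, and 15 rose and 13 fell in knockdown against fed cells. Over all tested genes 21.5% rose and 21.3% fell with starvation, 22.5% and 23.9% in knockdown against starved cells, and 9.27% and 9.23% in knockdown against fed cells. The split of calls over all genes depends on scaling: 50.3% of the calls in starved against fed cells were upward with the deposited scaling, 34.1% with TPM and 36.8% with scaling by library totals, and in knockdown against starved cells 48.4%, 58.1% and 58.1%. Of the effectors, 65 had a RefSeq promoter window here and 45 of them held a response element. CCL5, OASL, IFIT2, HLA-E and LY6E, which are 5 of the 10 effectors that rose in knockdown against starved cells, had no window and are not in these counts. CCL5, OASL and IFIT2 are also 3 of the 4 that rose in knockdown against fed cells. Among the tested effectors with a window, 8 of 25 with the element rose and 2 fell with starvation, and 2 of 11 without it rose and 3 fell. In knockdown against starved cells 4 with the element rose and 9 fell, and 1 of those without it rose and 1 fell. In knockdown against fed cells 1 with the element rose and 3 fell, and 0 without it rose and 2 fell.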

How the data were processed

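Libraries were made with a SMARTER mRNA-Seq kit from 1.3 µg of total RNA, per the labels' protocols. The deposited signal is each gene's read count over a size factor common to the library, although the table is named for FPKM: in every library, 100% of the values could be written as whole multiples of a single step (relative tolerance 1e-06). Reads were recovered for 8 of 9 libraries (starved replicate 1 has a factor too close to 1). Depth is given above, and counting error covers only part of the spread. The submitters' processing notes name the build mm10, but the identifiers are human: 19849 of 19966 were in GENCODE release 29, of which 19817 overlapped its GRCh38 position. The aligner and the counting tool are not given in the sources used here. Planning had assumed normalized values, and no count test is a main result.

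FPKM was computed as normalized count per kilobase and scaled by the mean library total of 13565200, so that the deposited scaling was kept. Genes at 1 FPKM or more in 3 libraries were tested with limma (trend, 3 group means over 9 libraries, pseudocount 1, two-sided, Benjamini-Hochberg at 0.05 over 11123 genes in each comparison). The 9 genes and the lists were chosen with earlier results of these data known. Named pathway genes are up to 4 per list and comparison with the largest change past the threshold, and listed sensors, ligands or receptors under the filter. IFIH1 and IFIT2, and MX1, OAS1, XAF1, RTP4, LGALS3BP, APOL2, LAP3 and IFI27L1 among the effectors, stand outside it and were chosen after their values were seen. The fit and edgeR's quasi-likelihood test were tested on simulated data. Alternatives were pseudocounts of 0.1 and 0.5, no filter or 5 FPKM, scaling by quantiles, TPM or median ratios, limma fitted robustly or with no trend, 2 groups alone, a replicate block, each library left out, and edgeR. Scaling by library totals, log2 of normalized counts, and leaving out both starved replicate 2 and knockdown replicate 3 were chosen after seeing the data. Software was Python 3.11.15 with pandas 2.3.3, numpy 2.4.6 and matplotlib 3.10.9, and R 4.3.3 with edgeR 4.0.16 and limma 3.58.1.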

Additional observations from a re-analysis of the deposited data

How the results depend on the processing

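For the 9 genes in 3 comparisons (27 results), 513 alternatives were run: 460 kept direction and side of the threshold, 21 lost a call, 16 gained one and 16 changed sign. The sign changes all concern results that did not pass the test: IRF1 in starved against fed cells by edgeR (-0.022), ADAR there by edgeR (0.004) or with 1 library left out (-0.032 to 0.016), IFIT1 and ISG15 there with 1 library left out (-0.07 to 0.007 and -0.302 to 0.012), EIF2AK2 in knockdown against starved cells with TPM, quantile or library total scaling, or by edgeR (0.027, 0.046, 0.036, 0.046) or with 1 library left out (-0.152 to 0.091), and ADAR in knockdown against starved and against fed cells with 1 library left out (-0.021 to 0.191 and -0.033 to 0.18, below 0 without knockdown replicate 3) or without starved replicate 2 and knockdown replicate 3 (-0.004 and -0.033). A filter of 5 FPKM, which leaves fewer genes to test, called 3119 genes and 35 pathway genes in starved against fed cells, 3416 and 38 in knockdown against starved cells, and 2 of the 9 in knockdown against fed cells. TPM called 1 of the 9 in starved against fed cells, and 0 of the 9 and 18 pathway genes in knockdown against fed cells. Fitting 2 groups alone called 0 of the 9 in knockdown against starved cells. Limma without trend and log2 of normalized counts each called 2 of the 9 in knockdown against fed cells. Without starved replicate 2 and knockdown replicate 3 together, 4 of the 9 were called in knockdown against starved cells, and 3 of the 9, 45 pathway genes and 3676 genes in knockdown against fed cells; apart from fewer samples the cause was not tested. Leaving out 1 library at a time gave 3648 to 5791 genes, 2 to 3 of the 9 and 35 to 65 pathway genes in starved against fed cells (35 without starved replicate 3), 4071 to 5551, 1 to 4 and 37 to 61 in knockdown against starved cells (37 pathway genes without starved replicate 1), and 853 to 2499, 0 to 2 and 12 to 32 in knockdown against fed cells (853, 1002 and 1062 genes, and 13, 12 and 16 pathway genes, without fed replicates 1, 2 and 3, and 18 pathway genes without knockdown replicate 1). The same replicate numbers do not pair the samples (correlations of same-numbered deviations -0.56 to 0.62), and with a replicate block 4826, 5199 and 2049 genes were called in the 3 comparisons, with a call gained for IFI6 in knockdown against starved cells (limma adjusted p = 0.0428). Depth limits IRF9, IRF1, IFI27 and IFNB1, which rest on few reads per library.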
